A study of Mus musculus with 40 samples.

Results

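The nuclei described here form the class that the study's authors named Per in their annotation of mouse kidney nuclei. It was chosen by level: among classes of at least 50 nuclei other than the fibroblast class (Fib), its summed counts held the highest share of Pdgfrb, the receptor for platelet-derived growth factor B that marks cells of vessel walls and stroma. The rule found 95 of 16500 nuclei, spread over 30 classes. Of them, 35 came from sham replicate 1, 12 from sham replicate 2, 35 from replicate 1 after unilateral nephrectomy (UNx) and 13 from UNx replicate 2. The working name, mural and juxtaglomerular nuclei, did not hold in these data, because the defining genes of renin cells and of smooth muscle were at or near 0 in the class. It is therefore called Per, or the Vcan-rich class after its leading gene.

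The study examined the remaining right kidney after the left one had been removed, against sham-operated animals. All mice used here were male C57BL/6 of 8 to 12 weeks, taken 24 h after surgery. Nuclei came from a kidney section of each of 4 mice, 2 sham and 2 UNx, were sorted by DNA stain and were read from the 3' end of transcripts. Bulk RNA came from 12 other mice, 6 per group, and the labels say nothing of pooling.

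Mural cells wrap the endothelium: smooth muscle cells contract around arterioles, pericytes support capillaries, mesangial cells hold the glomerular tuft together, and juxtaglomerular cells in the afferent arteriole release renin, which starts the cascade that forms angiotensin. Platelet-derived growth factor B from endothelium recruits these cells through Pdgfrb. Stromal fibroblasts between the tubules also carry Pdgfrb, and usually carry Pdgfra and the collagens of loose connective tissue as well.

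Levels are given as counts per 1000000 (CPM) of the unique molecular identifiers (UMIs) summed over the nuclei of a mouse or, for a class as a whole, over all its nuclei. Nuclei of both second replicates, which carry the label of batch 4, stood apart from those of the first replicates, labelled batch 3. The median nucleus of the class held 6190, 17078, 4933 and 7361 UMIs in sham replicates 1 and 2 and UNx replicates 1 and 2. More than 10000 UMIs were found in 9 of 12 nuclei of sham replicate 2, which gave 93.4% of that mouse's UMIs, and in 3 of 13 of UNx replicate 2, which gave 59.8%. None of the 70 nuclei from batch 3 passed that number. The 11 proximal tubule markers summed to 4418 and 7318 CPM in the sham and UNx mice of batch 3 but to 16378 and 16995 CPM in those of batch 4. Both mice of a group differed in labelled batch. Each sham and UNx comparison of nuclei that leaves out no mouse thus holds 1 mouse of each batch per group. A cell barcode shared with another library occurred in 36 nuclei overall and in 2 of the class.

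By the rule's own measure, pooled over mice, Pdgfrb stood at 213 CPM in Fib, which the rule leaves out, 194 CPM in the class named JG cell and 124 CPM in Per. The next class, parietal epithelium (PEC), stood at 51.4 CPM. The JG cell class fell just outside the rule with 49 nuclei. These values chose the class and are given as a description.

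The renin and contractile genes separated Per from JG cell. Pooled Ren1, the gene for renin, was at 8.00 CPM in Per and 647 CPM in JG cell. Acta2, smooth muscle actin, was at 4.92 CPM against 131 CPM. In the 4 mice, in the order given above, a Ren1 UMI was found in 0, 3, 0 and 2 nuclei of Per, and an Acta2 UMI in 0, 3, 0 and 0. All of these came from batch 4. Akr1b7 and Gja5, further genes of renin cells and their junctions, were at 0 in Per and at 54.1 and 75.5 CPM in JG cell. The pericyte gene Mcam was at 0 against 38.4 CPM. The junction gene Gja4, the pericyte genes Higd1b and Vtn and the contractile gene Cnn1 were also at 0 in Per. In JG cell these last genes stood at 2.85, 2.85, 0 and 5.70 CPM, too low to separate the classes. Other pericyte genes were present in Per but lower than in JG cell, such as Abcc9 at 40.6 against 250 CPM and Cspg4 at 28.3 against 214 CPM.

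**Figure D1:**
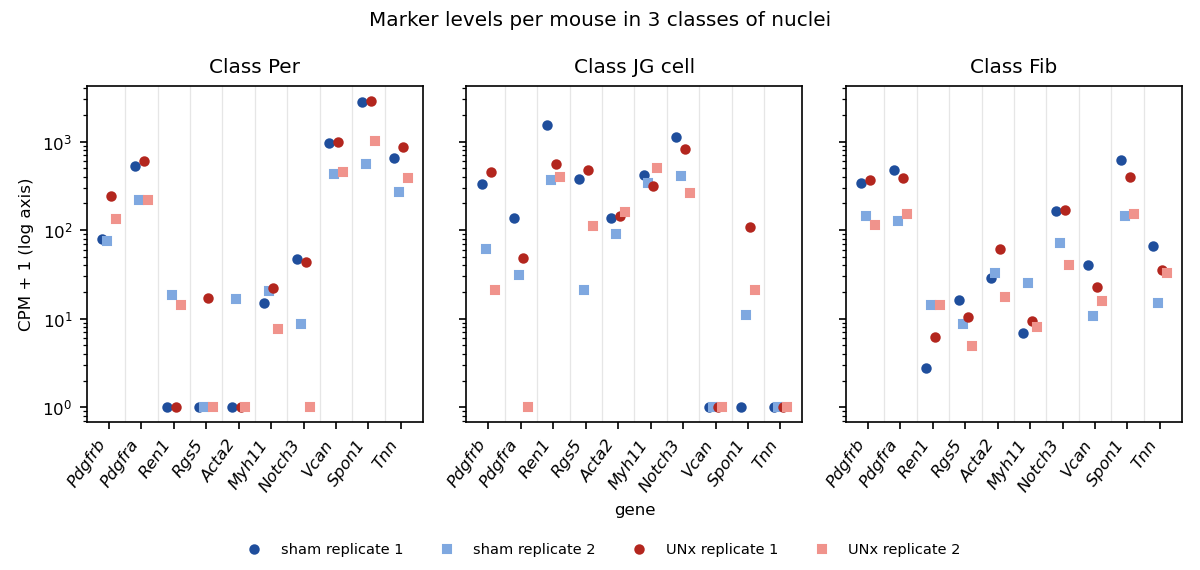
Level of 10 marker genes per mouse (CPM + 1, log axis) in the classes Per, JG cell and Fib; each point is 1 mouse. Ren1, Rgs5 and Acta2 lie at or near the bottom in Per, and Vcan and Tnn lie at the bottom in JG cell.

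As a whole, the lists of mural markers gave the same order in pooled level. The 10 general mural genes summed to 554 CPM in Per, 5219 CPM in JG cell and 1892 CPM in Fib. The 6 juxtaglomerular genes summed to 24.0, 1310 and 261 CPM and the 16 smooth muscle genes to 872, 3581 and 3168 CPM. Per lay above JG cell in none of the genes of these 3 lists, in none of 8 pericyte genes and in 1 of 7 mesangial genes. That mesangial gene was Itga8, an integrin chain, at 299 CPM in Per against 72.6 CPM. Agtr1a, the angiotensin receptor of the vessel wall, was at 30.6 CPM in Per and 744 CPM in JG cell.

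Fibroblast genes split. Pdgfra, the receptor for platelet-derived growth factor A, was at 389 CPM in Per, above its 247 CPM in Fib and 45.6 CPM in JG cell. The secreted matrix genes of fibroblasts went the other way: Dcn, the proteoglycan decorin, was at 8.61 CPM in Per against 98.8 CPM in Fib, and Col1a1, a chain of type I collagen, at 4.92 CPM against 50.3 CPM. Dpt, Pi16 and Mfap5 were at 0 in Per, but Fib itself held only 3.75, 2.86 and 5.98 CPM of them. At such levels the zeros do not separate the classes. The endothelial list summed to 1297 CPM, of which Emcn, an endothelial sialomucin, gave 1061 CPM. The endothelial class EC1 held 9370 CPM of the same list.

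To compare nuclei of different depth, each was thinned to 2500 UMIs, and the share with at least 1 UMI was counted. Proximal tubule nuclei of the S1 segment (PTS1) served as a class that should lack these genes. Their median depth before thinning was 10874 UMIs, against 6140 in Per. Vcan was found in 69.5% of thinned Per nuclei, 2.36% of Fib, none of JG cell and 0.966% of PTS1. Pdgfra was found in 68.4% of Per nuclei and 0.520% of PTS1, and Pdgfrb in 29.5% and 0.372%. Ren1 reached 2.11% in Per and 0.818% in PTS1, with 27.1% in JG cell. Rgs5 was found in 0 of 95 thinned nuclei of Per and in 41.7% of those of JG cell. Before thinning, 1 of the 95 Per nuclei held an Rgs5 UMI. Such shares limit nuclei with a UMI at this depth, not nuclei that express the gene.

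The same nuclei often held several of these genes. Before thinning, and counting any estimated value above 0, 85 of the 95 nuclei held Vcan, 81 held Pdgfra and 50 held Pdgfrb. The Vcan value of 1 of these nuclei rounds to 0, which leaves 84 when values are rounded, as they were for thinning. Vcan and Pdgfra occurred together in 74, and Pdgfra and Pdgfrb in 45. Only 3 nuclei held neither Vcan nor Pdgfra, all from UNx replicate 1. Spon1, the secreted matrix protein F-spondin, was present in all 95.

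The 25 genes with the highest ratio of Per to the highest other class describe what set the class apart, and since the authors' clustering used the same genes, they carry no test. Vcan (chr13:89655312-89742509, minus strand, GRCm38, a protein-coding gene) encodes versican, a large chondroitin sulfate proteoglycan. It stood at 709 CPM in Per, 19.2 CPM in Fib and 0 in JG cell. Other matrix genes among the leaders were Spon1, at 1768 CPM against 669 CPM in the ascending thin limb class (ATL), and Tnn, a tenascin, at 527 CPM against 167 CPM. Hpse2, the heparanase homologue that does not cut heparan sulfate, was at 475 CPM against 74.8 CPM in JG cell.

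Receptors and transcription factors also led. Npy1r and Npy5r, receptors for the sympathetic transmitter neuropeptide Y, stood at 98.4 and 70.1 CPM in Per and at no more than 11.4 and 2.03 CPM in any other class. Ahrr, the repressor of the aryl hydrocarbon receptor, was at 273 CPM against at most 3.57 CPM. Rarb, a retinoic acid receptor, was at 939 CPM against 365 CPM, and Kcnd2, a potassium channel of the A type, at 601 CPM against 184 CPM in Fib. Rspo3, a secreted enhancer of Wnt signalling, reached 184 CPM against 34.2 CPM.

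**Figure D2:**
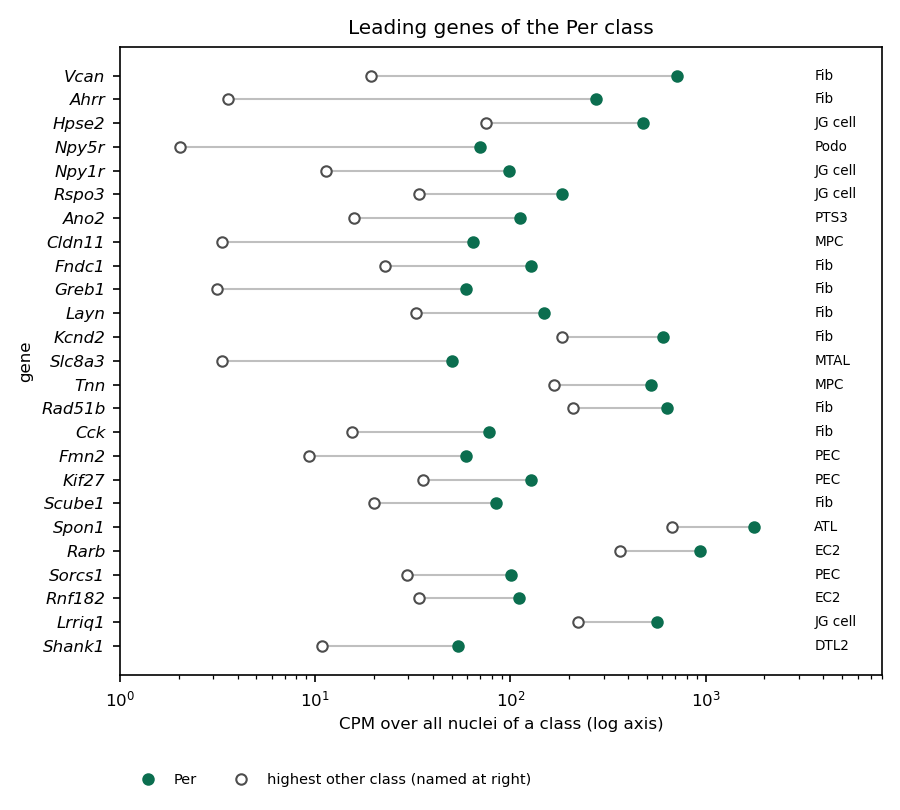
Level of the 25 leading genes in Per (filled) and in the highest other class (open, named at right), as CPM over all nuclei of a class on a log axis. The genes were chosen by this ratio; Vcan and Ahrr show the widest gaps.

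Leading genes differed in level between mice. Vcan was at 962 CPM (exact 95% Poisson interval 836 to 1102) and 434 CPM (356 to 521) in the sham mice and at 1001 CPM (863 to 1155) and 453 CPM (352 to 575) in the UNx mice. Both batch 3 mice were high and both batch 4 mice low, whichever the operation. Spon1 followed the same order, with 2801 and 552 CPM after sham and 2854 and 1014 CPM after UNx. Hpse2 showed a wide gap between batches, with 1101 and 700 CPM in batch 3 but 27.4 and 60.0 CPM in batch 4.

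Within the batch 4 mice the leading genes made up a smaller share of the UMIs in deep nuclei. The values are shares, not amounts per nucleus. The 25 leading genes summed to 2376 CPM in the 9 nuclei of sham replicate 2 above 10000 UMIs and to 11299 CPM in its other 3. Those 3 nuclei stood at 10102, 3945 and 18945 CPM. In UNx replicate 2 the sums were 2018 CPM in 3 deep nuclei and 7686 CPM in the other 10. The batch 3 mice, with no such nuclei, stood at 12363 and 12945 CPM. The plot of single nuclei shows this fall. Proximal tubule marker RNA was above 10000 CPM in every nucleus of both batch 4 mice, shallow or deep. Its sum was 12756 CPM in the shallow and 16634 CPM in the deep nuclei of sham replicate 2, and 15109 and 18265 CPM in those of UNx replicate 2. Whether deep nuclei carry RNA of more than 1 cell was not tested.

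**Figure D3:**
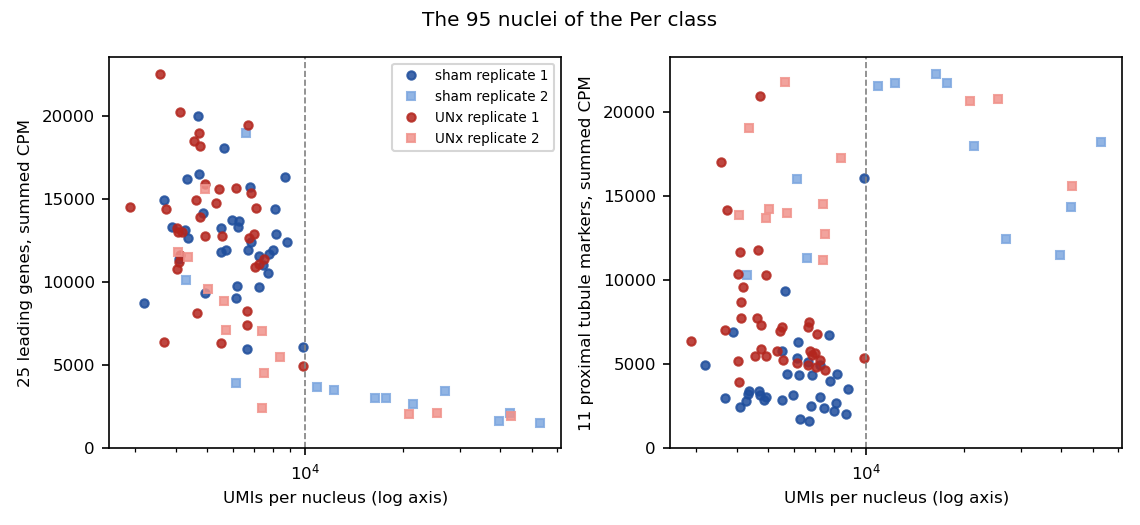
Summed CPM of the 25 leading genes (left) and of 11 proximal tubule markers (right) in each of the 95 nuclei, against UMIs per nucleus (log axis); the dashed line is at 10000 UMIs. Nuclei right of the line come only from the second replicates and hold low leading-gene values; tubule-marker values are above 10000 CPM in all nuclei of the second replicates, on both sides of the line.

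Beyond the genes that set it apart, Per held matrix, growth factor and contractile-signalling genes. The type IV collagen chains of mature basement membrane were present in every mouse, Col4a3 at 1410, 1332, 2218 and 1242 CPM and Col4a4 at 1830, 1323, 2238 and 1444 CPM in the order given above. Igfbp5, which binds insulin-like growth factors, was at 1245 CPM pooled, and Ltbp1, which holds latent TGF-beta in the matrix, at 986 CPM. For each of these last 2 genes the class had the highest pooled level of all classes. Cacna1c, the L-type calcium channel, was at 1135 CPM, below its 1490 CPM in JG cell. Adra1a, a receptor for noradrenaline, was at 171 CPM, below its 359 CPM in PTS1. The lists of these 2 genes stood lower in Per than in JG cell. The 21 genes of calcium handling summed to 4663 against 12667 CPM and the 21 of vasoactive receptors to 512 against 1789 CPM. Over the 4244 genes compared, the pooled profile of Per was most like Fib (Pearson's r = 0.812 and Spearman's rho = 0.810), then JG cell (0.734 and 0.736). Podocytes came next by r (0.708, rho 0.714) and the endothelial class EC2 by rho (0.717, r 0.685). These correlations run across genes on the log2(CPM + 10) scale within the same 4 libraries and have no test. The genes were those with at least 40 summed counts in Per. The classes also differed in size, with 598 nuclei in Fib and 49 in JG cell. Small classes have noisier levels, and the order was not adjusted for that.

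Per nuclei made up 0.655% (exact 95% Clopper-Pearson interval 0.457 to 0.910) and 0.454% (0.235 to 0.792) of the nuclei of the sham mice. In the UNx mice the shares were 0.679% (0.474 to 0.944) and 0.386% (0.206 to 0.660). The groups overlapped, with both batch 3 mice high and both batch 4 mice low. The means were 0.555% for sham and 0.533% for UNx, a difference of -0.0219 percentage points (exact permutation test, two-sided, p = 1.0, n = 2 per group, where the smallest possible p is 0.333). Among nuclei of at most 10000 UMIs the difference was 0.206 percentage points.

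After UNx no gene of Per passed the test. Summed counts per mouse were compared with edgeR's quasi-likelihood test, 2 mice against 2, with a call at a Benjamini-Hochberg adjusted p under 0.05. None of 4622 genes was called (0.0%), 13 (0.281%) had an unadjusted p under 0.05, and the DESeq2 Wald test called 0, with 6 unadjusted. Both UNx mice lay above both sham mice for 470 genes (10.2%) and below both for 392 (8.48%). The median log2 fold change was -0.01. Because first and second replicates share a labelled batch across groups, the fit was also made with the replicate number as a block. It called 2 genes (0.0433%), Nrg1 and Malat1, both lower after UNx, and 217 (4.69%) had an unadjusted p under 0.05. Among nuclei of at most 10000 UMIs no gene was called with the block (66 unadjusted) or without it (22 unadjusted).

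Nrg1 (chr8:31814551-32884029, minus strand, GRCm38, protein-coding), neuregulin 1, is a ligand of ErbB receptors. It was at 414 and 418 CPM in the sham mice and at 70.6 and 44.7 CPM in the UNx mice, so the groups did not overlap. The log2 fold change was -2.85 (SE 0.537, n = 2 per group, edgeR unadjusted p = 0.00322, adjusted p = 0.9997), and with the replicate block -2.85 (SE 0.389, adjusted p = 0.00194). A single nucleus held 72.2% of the Nrg1 UMIs of sham replicate 1 and another 68.5% of those of sham replicate 2. Without the nucleus richest in Nrg1 in each mouse, the levels were 120 and 158 CPM in sham and 58.1 and 9.53 CPM in UNx. Without the tenth of nuclei with most UMIs in each mouse the log2 fold change was -1.34 (edgeR adjusted p = 1.00). Among nuclei of at most 10000 UMIs it was -2.66 with the block (edgeR adjusted p = 0.869).

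Nrg1 RNA was also found outside the class. After thinning, an Nrg1 UMI was found in 11.6% of Per nuclei and 26.9% of PTS1 nuclei, while the pooled level was 268 CPM in Per and 174 CPM in PTS1. The share and the level put the classes in opposite orders, so no order is read from them. In all nuclei outside Per the levels were 419 and 239 CPM after sham and 195 and 174 CPM after UNx. Malat1, a long noncoding RNA kept in the nucleus, was at 172813 and 63099 CPM in sham and at 109402 and 38701 CPM in UNx. Its groups overlapped, and each UNx mouse lay below the sham mouse of its batch, at 0.633 and 0.613 of that level. With the block its log2 fold change was -0.71 (SE 0.118, adjusted p = 0.0155).

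Pdgfrb itself was at 78.6 CPM (95% Poisson interval 45.8 to 126) and 73.5 CPM (44.2 to 115) after sham. After UNx it was at 240 CPM (175 to 321) and 133 CPM (81.5 to 206). Both UNx mice were above both sham mice, by 3.05 times in batch 3 and 1.82 times in batch 4. The log2 fold change was 1.25 (SE 0.516, edgeR unadjusted p = 0.0601, adjusted p = 0.9997), so the gene was not called, and over the alternatives it lay between 0.79 (without UNx replicate 1) and 2.38 (nuclei thinned to 2500 UMIs) with none called. A Pdgfrb UMI was found in 13 of 35 and 7 of 12 nuclei of the sham mice and in 21 of 35 and 9 of 13 of the UNx mice. The rule used the Pdgfrb level over all 4 mice together, not this contrast.

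Exoc3l4 (chr12:111417017-111431678, plus strand, GRCm38, protein-coding) had the lowest p among the genes that were higher after UNx. It had 3 and 1 UMIs in the sham mice and 30 and 9 in the UNx mice, which is 13.9 and 3.87 CPM against 160 and 60.0 CPM. The UMIs of UNx replicate 1 were spread over 18 nuclei, with at most 5 in any. The log2 fold change was 3.54 (SE 0.931, edgeR unadjusted p = 0.0128, adjusted p = 0.9997). In the bulk kidneys Exoc3l4 differed by -0.01 on the log2 scale (SE 0.0920, edgeR adjusted p = 0.958).

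The other genes named as higher by the same rule had smaller differences and more UMIs than Exoc3l4, and none was called. Tle5, a transcriptional corepressor, was at 37.0 and 37.1 CPM in sham and at 101 and 120 CPM in UNx. Cdc42ep3, an effector of the GTPase Cdc42, was at 46.2 and 58.0 CPM against 192 and 107 CPM. Arfgef2, an exchange factor for Arf GTPases, was at 94.1 and 102 CPM against 243 and 187 CPM. The 10 genes named as higher had log2 fold changes from 1.05 to 3.54.

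Dlgap1, a scaffold protein known from synapses, was at 129 and 79.5 CPM in sham and at 20.6 and 14.5 CPM in UNx, a log2 fold change of -2.59 (SE 0.655, edgeR adjusted p = 0.9997). Its UMIs came from 14 and 6 nuclei in the sham mice and from 2 and 1 in the UNx mice. Col5a2, a chain of type V collagen, was at 84.8 and 112 CPM against 21.8 and 40.0 CPM, and 1 nucleus held 89.7% of its UMIs in sham replicate 2 and 1 held 83.3% in UNx replicate 2. Its log2 fold change was -1.69 (SE 0.607), and among nuclei of at most 10000 UMIs -0.29 (SE 1.32), or -0.88 with the replicate block (SE 0.873). In the rest of the nuclei Col5a2 was at 84.7 and 90.6 CPM in sham and at 28.1 and 18.3 CPM in UNx. Eif4a2, an RNA helicase of translation initiation, had a log2 fold change of -1.33 (SE 0.504). The 10 genes named as lower ran from -2.85 to -1.30. In bulk kidney 18 of the 20 genes named in either direction were tested. There 1 was called higher (Arfgef2, 0.20) and 3 lower (Tmem108 -0.43, Msl2 -0.21 and Dhrs3 -0.62). Over all genes in bulk 14.2% were called higher and 13.1% lower. Col5a2 stood at 0.17 in bulk and was not called.

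**Figure D4:**
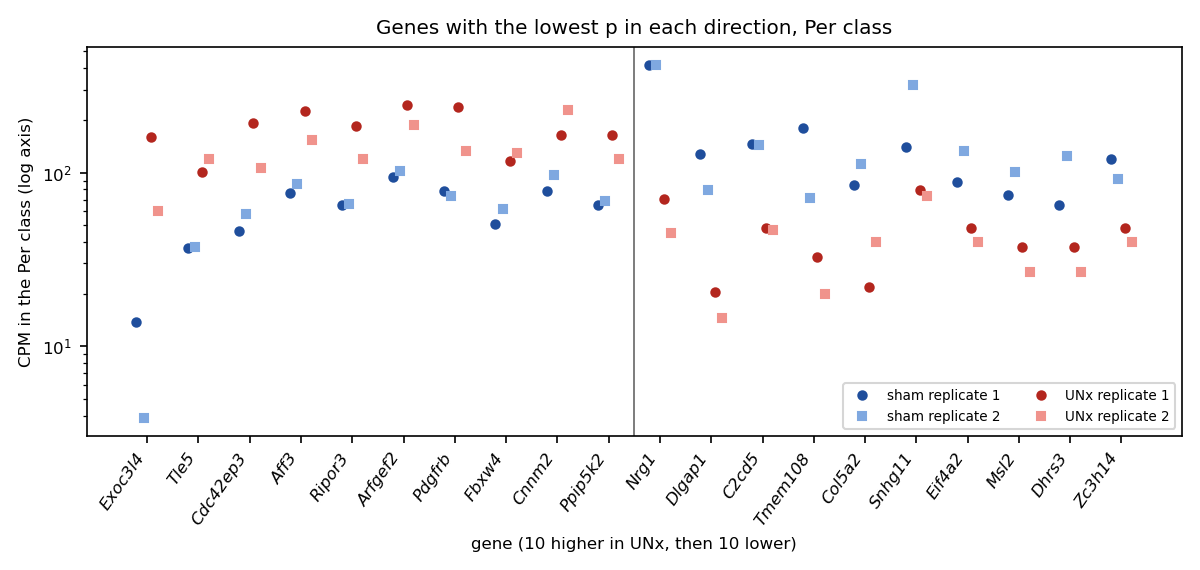
Level in Per of the 10 genes with the lowest p that were higher after UNx and the 10 that were lower, among genes with no overlap between groups (CPM, log axis; 1 point per mouse). The choice of genes fixes the separation of the groups; none of the 20 was called without the replicate block.

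By role, the lists showed no called gene in either direction in the fit without the block, and their counts are read against 0.0% called over all genes. Of the mural lists, few genes passed the filter on low counts: 3 of 10 general mural genes, 3 of 16 smooth muscle genes, 1 of 8 pericyte genes, 2 of 7 mesangial genes and 0 of 6 juxtaglomerular genes. Among 6 genes of platelet-derived growth factors and their receptors, 3 were tested, with a median log2 fold change of 0.60. Beside Pdgfrb these were Pdgfra, at 532, 216, 596 and 220 CPM in the order given above, and the ligand Pdgfd, at 102, 85.1, 149 and 141 CPM. Pdgfra was high in both batch 3 mice and low in both batch 4 mice (log2 fold change 0.06, SE 0.791).

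In the control of renin, 12 of 24 genes were tested, 7 of them with values above 0 and 5 below (median 0.18). Prkg1, the cGMP-dependent kinase, was at 2188, 289, 1710 and 619 CPM, and Crebbp, a coactivator at the renin promoter, at 368, 332, 398 and 378 CPM. Of 21 genes of calcium handling, 9 were tested (median 0.14). Cacna1c was at 1567, 735, 1551 and 680 CPM. In the TGF-beta list 9 of 15 were tested (median -0.07), in the matrix list 15 of 27 (median 0.18) and among integrins and their partners 10 of 15 (median 0.10). In the matrix list Col5a2 alone had an unadjusted p under 0.05. The insulin-like growth factor list had 1 gene above and 5 below 0 of 6 tested (median -0.24). None of 22 genes of DNA replication and mitosis passed the filter.

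One library decided calls in this comparison. Without sham replicate 2, where the lone remaining sham mouse is assumed to vary like the UNx mice, 9 genes were called, all higher after UNx, with log2 fold changes from 5.31 to 8.14. They were Hnf4aos, Galnt14, Wwc1, Pax8, G6pc, Slc22a30, Slc13a3, Abca13 and Egfem1. Pax8 is a transcription factor of kidney epithelium, G6pc an enzyme of glucose release and Slc22a30 and Slc13a3 are tubule transporters. The contrast then sets a batch 3 sham mouse with 4418 CPM of proximal tubule markers against UNx mice with 7318 and 16995 CPM, and the part of that difference in the calls was not tested. Leaving out any of the other 3 mice gave 0 calls.

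Whether the response of Per differed from that of Fib, the class with the highest correlation above, was then tested. The test took the difference of the UNx effects with the mouse as a block. None of 10002 genes was called (0.0%), 187 (1.87%) had an unadjusted p under 0.05, and the DESeq2 Wald test called 0, with 40 unadjusted. Named by the lowest p, Slc8a1, the sodium-calcium exchanger, was at 894 and 758 CPM in sham and at 887 and 4913 CPM in UNx in Per, against 601, 2474, 145 and 1227 CPM in Fib. The difference was 2.79 (SE 0.693, edgeR adjusted p = 1.0). A single nucleus of 43127 UMIs held 93.0% of the Slc8a1 UMIs of UNx replicate 2, and without it that mouse stood at 484 CPM. The difference was 1.53 without sham replicate 2 and 1.09 among nuclei of at most 10000 UMIs. In the other direction, Tenm2, an adhesion protein known from synapses, was at 9.38 and 147 CPM in sham and at 0 and 6.67 CPM in UNx in Per (difference -5.41, SE 1.01, edgeR adjusted p = 1.0).

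The JG cell class, which held the renin RNA, is given for comparison only, as its 49 nuclei were not tested. Its Ren1 stood at 1553 CPM (95% Poisson interval 1269 to 1882) and 370 CPM (258 to 506) in sham and at 551 CPM (403 to 735) and 401 CPM (286 to 545) in UNx. The single value far above the others was that of sham replicate 1. Its Pdgfrb was at 329 and 59.5 CPM in sham and at 455 and 20.0 CPM in UNx, so it split by batch. The 2 batch 4 values rest on few Pdgfrb UMIs, from 6 nuclei with 100820 UMIs in sham and 9 with 99873 in UNx.

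In bulk kidney at 24 h, the lists of mural markers were examined in 6 sham and 6 UNx libraries of 14.9 to 24.1 M (1000000) estimated counts. CPM here is per M counts of a library scaled by trimmed-mean (TMM) factors. In bulk tissue, fewer cells of a type and less RNA per cell cannot be told apart. Most genes of the mural lists stood lower in Per than in JG cell, and the values describe other cells of the kidney as well. Over all genes 14.2% of 14104 were called higher and 13.1% lower after UNx by edgeR's quasi-likelihood test. Of the 43 different genes in the 5 mural lists, 39 were tested, with 7 called higher and 1 lower. The median log2 fold change was 0.14, against 0.01 over all genes.

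Contractile genes made up most of these calls. Among the classes of nuclei, Acta2 and Flna were highest in JG cell and Tagln in Fib. Tpm1, however, was highest in the class named Uro and Smtn in ATL. Cnn1 was too low in every class to be placed, at 5.70 CPM or less. Acta2 ran from 10.9 to 17.0 CPM in sham (median 12.5) and from 16.9 to 50.8 CPM in UNx (median 19.1). The lowest UNx library lay just below the highest sham library, and the log2 fold change was 0.96 (SE 0.248, adjusted p = 0.0104). Tagln, an actin-binding protein of smooth muscle, ran from 8.03 to 13.4 CPM in sham (median 9.09) and from 14.2 to 25.6 CPM in UNx (median 16.8) without overlap (0.83, SE 0.149, adjusted p = 0.00117). Flna, the actin cross-linker filamin A, rose by 0.68 (SE 0.124, adjusted p = 0.00126) and Tpm1, a tropomyosin, by 0.23 (SE 0.0565, adjusted p = 0.00845). Smtn, the contractile-cell protein smoothelin, was lower, with a log2 fold change of -0.38 (adjusted p = 0.00484, SE 0.0852).

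Mcam, a surface protein of mural and endothelial cells, ran from 4.72 to 6.31 CPM in sham and from 6.68 to 13.8 CPM in UNx (0.58, SE 0.169, adjusted p = 0.0201). Notch3, the Notch receptor of mural cells, rose by 0.40 (SE 0.128, n = 6 per group, adjusted p = 0.0293). Cnn1, calponin, rose by 1.98 (SE 0.695, adjusted p = 0.0457), with 0.411 to 0.827 CPM in sham and 0.509 to 8.45 CPM in UNx. The library of UNx replicate 4 was the highest of all 12 for Acta2, Tagln, Mcam, Myh11, Cnn1 and Rgs5. Without it Acta2 stood at 0.65 (adjusted p = 0.00855), Tagln at 0.70 and Mcam at 0.37 (adjusted p = 0.0172). The calls of Cnn1 (0.84, adjusted p = 0.174) and Notch3 (0.33, adjusted p = 0.0650) were lost.

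A score of RNA profile, built from 271 pseudogenes and scaled to 0 for the shams of the later times and 1 for those of 24 h, was 0.958 to 1.04 in sham and 0.674 to 0.884 in UNx libraries, so it moved with the operation. With that score as a covariate none of the 39 mural genes was called (2 unadjusted), Acta2 stood at 1.30 (SE 0.610, adjusted p = 0.579) and Smtn at 0.06 (SE 0.187, adjusted p = 0.977). The score and the operation cannot be told apart in these libraries.

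**Figure D5:**
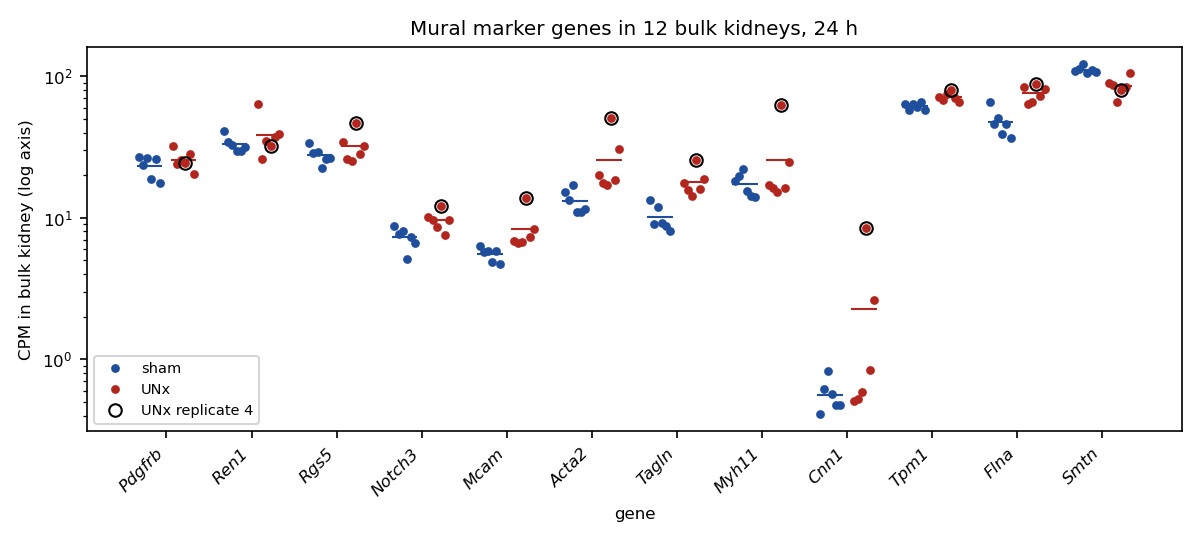
Level of 12 mural marker genes in the 12 bulk kidneys at 24 h (CPM, log axis); points are libraries, bars are group means and the ring marks UNx replicate 4. Tagln, Mcam and Tpm1 do not overlap between groups, and Pdgfrb and Ren1 do.

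The receptor and the hormone that gave the nuclei their working name were not called in bulk. Pdgfrb ran from 17.7 to 27.1 CPM in sham and from 20.5 to 32.1 CPM in UNx (log2 fold change 0.14, SE 0.120, edgeR adjusted p = 0.404). Ren1 ran from 29.8 to 40.9 CPM and from 25.8 to 63.6 CPM (0.22, SE 0.164, adjusted p = 0.332). Both pairs of groups overlapped. Of the 25 leading genes of Per, 10 passed the filter in bulk and none was called. All 10 had log2 fold changes above 0 (median 0.27), as had 7166 of all 14104 genes (median 0.01). They were not tested as a set. Fndc1, a matrix protein with fibronectin domains, alone had an unadjusted p under 0.05 (1.08, SE 0.412, edgeR adjusted p = 0.0637). Spon1 ran from 4.52 to 16.6 CPM in sham and from 9.76 to 19.4 CPM in UNx, with overlap (0.36, SE 0.256, adjusted p = 0.314). With the profile score as a covariate the signs of the 10 genes were mixed. Fndc1, Kif27, Rarb and Shank1 then stood above 0 (0.90, 0.66, 0.25 and 1.04). Npy1r, Layn, Tnn, Cck, Scube1 and Spon1 stood below 0 (-0.63, -0.58, -0.83, -0.90, -0.38 and -0.50).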

How the data were processed

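Values for nuclei are the authors' deposited estimated counts of UMIs, not normalized. Per the submitters' processing notes that table was made with alevin and Seurat on mm10, without versions or settings, and holds 16500 nuclei and 32285 genes. The deposited bulk table holds expected counts per gene (28467 genes). For it, Salmon 1.5.0, FastQC 0.11.8, GRCm39 and R 4.10 are listed in the same notes. The filter on nuclei is not given in the sources used here; the lowest UMI total was 1755. Any removal of doublets is not given either, and none were called here. The classes were taken from the annotation deposited by the authors, in its form with 30 classes.

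Counts were summed per mouse and class and rounded, then tested with edgeR 4.0.16 (filterByExpr, TMM factors, quasi-likelihood, two-sided) in R 4.3.3. DESeq2 1.42.0 was an alternative, with its size factors in edgeR and its Wald test. Other alternatives were no filter, the replicate block, each library left out, and subsets or thinning of nuclei by UMIs. Nothing says that replicates are other than single mice. Intervals and floors (3 counts) cover counting error only. Coordinates are from the GENCODE M21 annotation of GRCm38. Replicate numbers of the nuclei are labelled batches and so pair the mice; deviations of same-batch mice had a correlation of 0.739. The bulk numbers did not pair (-0.157 to 0.0285, none highest with its own number).

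The members, 29 gene lists (364 genes) and the rules were chosen with earlier results of these data known. The text names, in the class, up to 10 genes per direction with the lowest p among genes with at least 40 summed counts and no overlap between groups, passing over predicted genes. It also names the 3 lowest per direction for the difference from Fib, up to 4 members per list by mean level, and called members of the mural lists in bulk. Leading genes were ranked by the ratio of CPM + 20 to the highest other class. Scripts were tested on simulated data.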

Additional observations from a re-analysis of the deposited data

Results flagged for a closer look

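In bulk kidney at 24 h, 1 of the 6 UNx libraries, replicate 4, lay far from the other 5 for mural genes that included Mcam, Cnn1 and Myh11. Myh11, which was not called, was at 63.1 CPM there and at no more than 24.7 CPM in the other UNx libraries. The 2 called genes Mcam and Cnn1 were flagged. Mcam was at 13.8 CPM in replicate 4, at the top of a group that began at 6.68 CPM, and Cnn1 was at 8.45 CPM in a group that began at 0.509 CPM. In each of these 2 genes the gap to the nearest library, divided by the range of the group (0.776 for Mcam and 0.733 for Cnn1), was above Dixon's critical value at 95% for 6 samples, which chance passes in about 1 in 20 groups. The values of both genes without this library stand with the bulk results. The cause was not tested.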

How the results depend on the processing

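For the UNx effect in Per, the replicate block, which follows the labelled batches, gave 2 called genes in place of 0. Leaving out single mice gave 0 to 9 calls, the 9 without sham replicate 2. All other alternatives that could be fitted gave 0. A fit without nuclei rich in proximal tubule markers was not run, because it left 0 nuclei in both batch 4 mice. For the difference from Fib, 3 genes were called without a filter (Slc8a1, Egfem1 and Tenm2), 3 with the replicate block by class (Egfem1, Tenm2 and Nrg1) and 2 among nuclei of at most 10000 UMIs (Slc12a3 and Efna5). Leaving out single mice gave 0 to 6 calls there: 1 without sham replicate 1 (Slc8a1), 0 without sham replicate 2, 3 without UNx replicate 1 and 6 without UNx replicate 2. The difference in share was 0.206 percentage points among nuclei of at most 10000 UMIs, and -0.169 to 0.125 with single mice left out. For the mural lists in bulk, the profile score as covariate gave 0 calls and turned Smtn to 0.062. Leaving out single libraries gave 6 to 8 calls, and the replicate block 6, without Notch3 (adjusted p = 0.0641) and Cnn1 (adjusted p = 0.0952). Notch3 lost its call without any of 6 single libraries and Cnn1 without any of 8. The causes were not tested. Alternatives by UMIs, by thinning and by single bulk libraries were added after the data were seen. In the batch 4 mice all values of the class rest on 12 and 13 nuclei, most of their UMIs from 9 and 3 of them.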
